A study of Mus musculus with 8 samples.

Results

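The comparison described here set endothelium against podocytes from EMCN-/- mouse kidney; Emcn is the gene of the endothelial sialomucin endomucin. It rested on 4 of the 8 deposited libraries, 2 of knockout endothelium and 2 of knockout podocytes. The other 4 libraries, 2 of wild-type endothelium and 2 of wild-type podocytes, served to show which cell-type differences were kept or shifted. All 8 came from cells of mouse kidney separated by fluorescence-activated cell sorting, and polyadenylated RNA was sequenced. The series' design text places the cells in glomeruli, whereas the sample labels name the kidney as tissue. The knockout groups were EMCN-/- and the wild-type groups EMCN+/+, and no other allele or agent was named for any group. The surface markers or reporters used for the sort, the exon removed, and the age, sex and strain of the mice are not given in the sources used here. The libraries carried the replicate numbers 2 and 3 in each group, and nothing says that they came from separate animals, so p-values measure only the spread between these samples. The 4 knockout libraries held 10478956 to 16241489 counts over the lines with all 8 values, and 16477 genes were tested. Mitochondrially encoded genes took 10.1% and 19.6% of the counts in knockout endothelium replicates 2 and 3, and 12.9% and 22.2% in knockout podocytes. The Pearson correlation of log2 CPM between replicates was 0.964 for knockout endothelium and 0.950 for knockout podocytes, the lowest of the 4 groups, and knockout podocyte replicate 2 stood apart in markers of the proximal tubule that are described at the end.

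The glomerulus filters blood through a fenestrated endothelium, a basement membrane and the foot processes of podocytes, which interlock across the slit diaphragm. Podocytes secrete vascular growth factors that act on receptors of the endothelium on the other side of the membrane, and endothelial ligands act in the reverse direction. The lumenal surface of the endothelium carries a glycocalyx of proteoglycans and sialomucins, of which endomucin is one, and podocytes carry a sialomucin coat of their own made largely of podocalyxin.

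The sorted cells carried the genes their labels name. Emcn, the targeted gene (Entrez 59308), stood at 173 and 179 CPM (the count of a gene relative to its library's total, scaled by TMM, the trimmed mean of M-values) in the knockout endothelial libraries (replicates 2 and 3) and at 5.59 and 4.94 CPM in the knockout podocyte libraries. In wild type it stood at 1972 and 1828 CPM in endothelium and 74.1 and 35.9 CPM in podocytes. Emcn was therefore about an order of magnitude lower in each knockout group than in its wild-type counterpart, while the ratio between cell types was alike: the log2 fold change of endothelium over podocytes (the base 2 logarithm of the fitted ratio) was 5.06 (SE 0.38, edgeR adjusted p = 4.14e-05) in knockout and 5.11 in wild type. The counts do not show which part of the gene gave the remaining reads. Cdh5, the adhesion molecule of endothelial junctions, stood at 63.9 and 51.4 CPM in knockout endothelium and 3.67 and 1.99 CPM in knockout podocytes. Kdr, the main signalling receptor for VEGF-A, stood at 1666 and 1498 CPM against 42.7 and 60.9 CPM, and Pecam1, a junctional adhesion molecule, at 1039 and 779 CPM against 30.0 and 48.7 CPM. For these 3 genes every endothelial library lay above every podocyte library, with log2 fold changes of 4.34, 4.93 and 4.53. Synpo, which encodes an actin-binding protein of foot processes, stood at 150.2 and 174 CPM in knockout endothelium and 2589 and 1727 CPM in knockout podocytes, and Wt1, a transcription factor of podocytes, at 25.5 and 34.6 CPM against 283 and 389 CPM. Their groups did not overlap either, and the log2 fold change was −3.74 (SE 0.54) for Synpo and −3.48 (SE 0.38) for Wt1. In bulk samples of this kind, fewer cells of a type and less RNA per cell cannot be told apart.

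**Figure D1:**
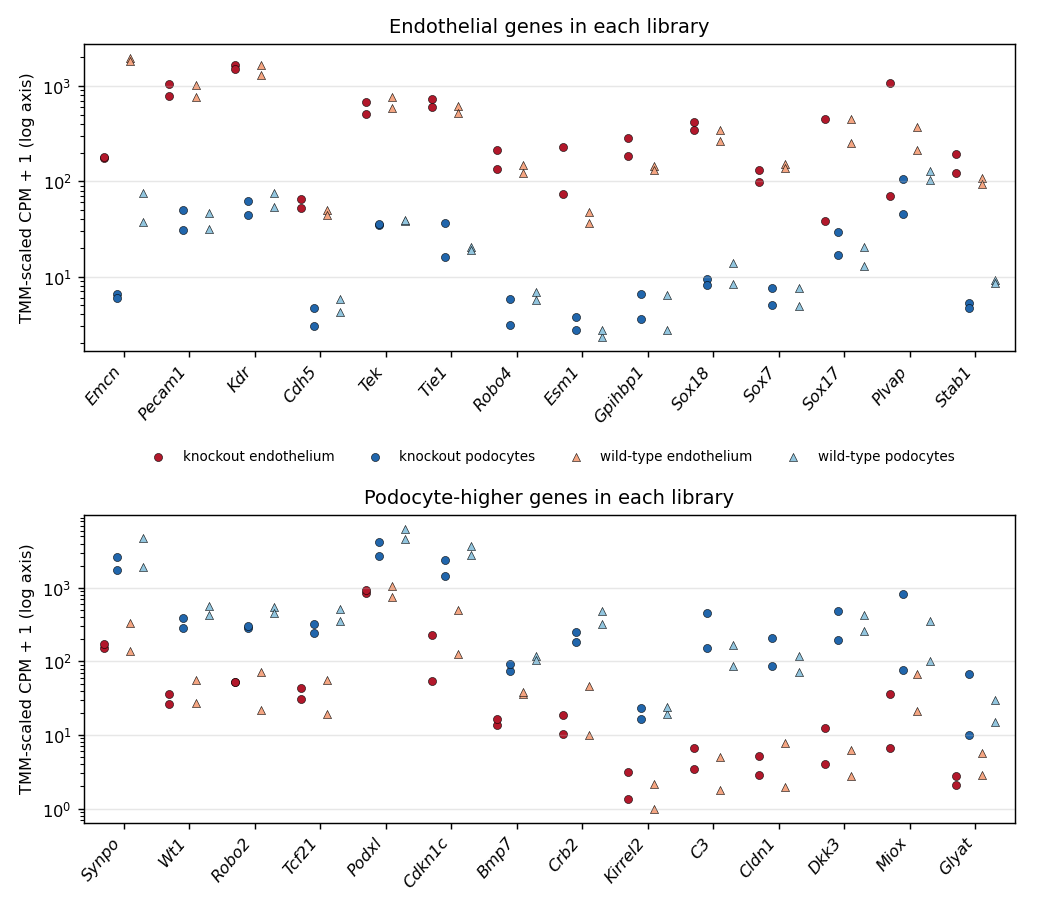
TMM-scaled CPM plus 1 on a log axis for 14 endothelial genes (top) and 14 genes higher in podocytes (bottom), with 1 point per library. Circles are knockout libraries and triangles wild-type ones; for Emcn the knockout endothelial points at 173 and 179 CPM sit far below the wild-type points and far above the knockout podocyte points, and for Sox17 and Plvap the 2 knockout endothelial points lie far apart.

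In the EMCN-/- libraries, 1709 of 16477 genes (10.4%) differed between endothelium and podocytes at an edgeR adjusted p under 0.05, 705 of them higher in endothelium (4.28%) and 1004 higher in podocytes (6.09%). In wild type the same fit called 1481 genes (8.99%), 702 higher in endothelium (4.26%) and 779 higher in podocytes (4.73%). The knockout total fell to 960 without knockout endothelium replicate 2, to 1115 without knockout endothelium replicate 3 and to 1079 without knockout podocyte replicate 2. With libraries scaled by total counts alone, which moved the median log2 fold change of all genes upwards by 0.281 in knockout, the split was 738 higher in endothelium against 480 higher in podocytes. Fitted on its own 4 libraries, knockout gave 1266 calls of 15709 genes and wild type 1692 of 14905, so the order turned.

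Endothelial identity genes were higher in knockout endothelium. Of the 21 tested members of the endothelial identity list, 18 were higher in knockout endothelium and none in knockout podocytes, with a median log2 fold change of 4.13 beside −0.01 over all genes tested (4.28% of which were called higher in endothelium), and the same 18 were called in wild type. The Robo4 gene, a guidance receptor that stabilises vessels, stood at 213 and 134 CPM in the knockout endothelial libraries and 2.11 and 4.79 CPM in the podocyte ones (log2 fold change 5.66). Mmrn2, an extracellular matrix protein that binds endothelial surface receptors, stood at 701 and 528 CPM against 12.7 and 19.4 CPM, and Egfl7, a secreted endothelial matrix protein, at 1879 and 1617 CPM against 34.9 and 60.5 CPM. In all 3 cases both endothelial libraries lay far above both podocyte libraries. The 3 members not called were Cldn5, Plvap and Tm4sf1, chosen for mention after their values were seen. Cldn5, a tight junction claudin, stood at 195 and 137 CPM in knockout endothelium and 182 and 345 CPM in knockout podocytes, groups that overlap, and was called higher in podocytes in wild type (109 and 126 CPM against 404 and 284 CPM).

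Transcription factors of the endothelium followed the same order. Of 19 tested, 16 were higher in knockout endothelium and none in knockout podocytes with edgeR (median log2 fold change 3.16), beside 4.28% and 6.09% of all genes, and all 16 were called in wild type too. With the 4 knockout libraries fitted alone, 13 were called. The median was 2.40 without knockout endothelium replicate 2. Sox18, a SOX F factor of vascular development, stood at 416 and 343 CPM in knockout endothelium and 8.51 and 7.15 CPM in knockout podocytes (log2 fold change 5.60, SE 0.35). Gata5 stood at 205 and 171 CPM against 7.83 and 3.98 CPM and Sox7, a second SOX F factor, at 132 and 97.8 CPM against 3.98 and 6.64 CPM. Hhex, a homeobox factor of early endothelium, stood at 77.2 and 65.7 CPM against 3.98 and 3.98 CPM. None of these groups overlapped, and Tal1, a bHLH factor shared with blood precursors, did not either although its level was low, at 8.25 and 7.40 CPM against 0.497 and 0.147 CPM.

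Sox17 and Plvap, singled out after their values were seen, set the knockout endothelial libraries apart from each other. Sox17, the third SOX F factor, stood at 448 and 37.0 CPM in knockout endothelium replicates 2 and 3, and at 15.9 and 28.5 CPM in knockout podocytes. Plvap, which forms the diaphragms of fenestrae and is found in peritubular rather than mature glomerular capillaries, stood at 1070.3 and 68.6 CPM in knockout endothelium and 104 and 43.9 CPM in knockout podocytes. Replicate 3 therefore lay close to the podocyte libraries for both genes, and in wild type their endothelial libraries stood at 446 and 249.6 CPM and 368 and 215 CPM. Sox17 passed the edgeR test (log2 fold change 3.45, adjusted p = 0.0311) and Plvap did not (adjusted p = 0.074). Without knockout endothelium replicate 2 the log2 fold change was 0.73 for Sox17 (edgeR adjusted p = 0.498) and −0.11 for Plvap (adjusted p = 0.955). The Sox17 call was also lost without knockout podocyte replicate 2 (edgeR adjusted p = 0.188) or 3 (0.0688), with voom (0.205), in a fit of the 4 knockout libraries alone (0.0828) and with a crossed replicate block (0.0575). Plvap passed without knockout endothelium replicate 3 (log2 fold change 3.85, edgeR adjusted p = 0.000565) and with the replicate number as a block (2.49, adjusted p = 0.033), but not with the crossed block (adjusted p = 0.208).

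Genes of fenestrae and caveolae were mostly higher in endothelium. Of 11 tested members, 7 were higher in knockout endothelium and 1 in knockout podocytes (median 2.87), beside 4.28% and 6.09% of all genes, so the podocyte count was near the background. Ehd3, a membrane-shaping ATPase that marks glomerular endothelium, was the most abundant by CPM, at 2918 and 3146 CPM against 193 and 125 CPM (log2 fold change 4.26). Gpihbp1, which holds lipoprotein lipase on capillary endothelium, stood at 280.5 and 183 CPM against 2.61 and 5.53 CPM, and Cd36, a fatty acid receptor, at 237 and 132 CPM against 7.58 and 9.96 CPM. Their groups did not overlap. Cavin1, a coat protein of caveolae, was the member higher in podocytes, at 214 and 179 CPM against 383 and 395 CPM, and its call was lost when any 1 of the 4 knockout libraries was left out.

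Notch pathway and arterial genes were called mostly higher in endothelium. Of 18 tested, 9 were higher in knockout endothelium and 2 in knockout podocytes (median 1.48), beside 4.28% and 6.09% of all genes, and the podocyte share was not far from that background. The podocyte count was 1 without knockout endothelium replicate 2 or 3 or knockout podocyte replicate 2. Of the ligands, Dll4 stood at 159 and 67.8 CPM in knockout endothelium against 7.21 and 3.69 CPM in knockout podocytes, and Jag2 at 39.6 and 22.0 CPM against 1.80 and 1.99 CPM. Mfng, a glycosyltransferase that modifies Notch receptors, stood at 96.0 and 59.5 CPM against 3.11 and 2.43 CPM, and the Notch target Hey1 at 74.2 and 37.1 CPM against 3.42 and 3.76 CPM. All 4 were higher in both endothelial libraries than in either podocyte library. The receptor Notch2 had the opposite order, at 27.1 and 24.0 CPM in endothelium against 70.3 and 76.4 CPM in podocytes (log2 fold change −1.52). Heyl, another Notch target, stood at 10.7 and 7.31 CPM against 54.4 and 19.4 CPM, with the high value in podocyte replicate 2, and its call was lost without knockout endothelium replicate 2 or 3 or without knockout podocyte replicate 2.

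Podocyte identity genes were higher in knockout podocytes. Of 22 tested members, 21 were called in that direction, beside 6.09% of all genes, and none in the other with edgeR (median log2 fold change −2.74), and all 21 were called in wild type. The cell cycle inhibitor Cdkn1c stood at 230.3 and 52.5 CPM in knockout endothelium and 1443 and 2412 CPM in knockout podocytes, and Podxl, the gene of podocalyxin, at 852 and 943 CPM against 2738 and 4154 CPM. Their groups did not overlap, with log2 fold changes of −3.77 and −1.94. The member not called was Pla2r1, a phospholipase A2 receptor, at 103 and 53.0 CPM in knockout endothelium and 46.7 and 23.0 CPM in knockout podocytes. With DESeq2's test, or with the replicate number as a block in edgeR, 1 member was called higher in endothelium. With scaling by total counts alone, 16 members were called higher in podocytes. The summed level of the list was 3726 and 3285 CPM in the knockout endothelial libraries and 17857 and 19708 CPM in the knockout podocyte libraries. In wild type it was 5285 and 2796 CPM in endothelium and 35761 and 24479 CPM in podocytes, so both knockout podocyte libraries lay below both wild-type ones. This genotype difference within podocytes was not tested as a sum.

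Slit diaphragm genes were called higher in knockout podocytes for 10 of 16 tested members (median −1.82), beside 6.09% of all genes, and in endothelium for 1, near the background of 4.28%. The podocyte count was 7 with scaling by total counts alone and 13 with the replicate number as a block. Crb2, a polarity protein at the slit, stood at 17.4 and 9.29 CPM in knockout endothelium and 249 and 181 CPM in knockout podocytes. Ddn stood at 40.8 and 39.0 CPM against 269 and 355 CPM and Ildr2, a junctional membrane protein, at 35.0 and 36.9 CPM against 217 and 346 CPM. The groups of all 3 lay apart, and the log2 fold changes were −4.01, −2.97 and −2.97. Kirrel2, a nephrin-related protein, stood at 2.19 and 0.344 CPM against 22.2 and 15.7 CPM and its call was lost without knockout endothelium replicate 3 or without knockout podocyte replicate 2. Nck1, an adaptor that links phosphorylated nephrin to actin and is expressed widely, was the member higher in endothelium, at 128 and 115 CPM against 59.5 and 42.9 CPM. Nphs1, which encodes nephrin, was among the genes not analysed here.

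Actin and adhesion genes of the podocyte list were called higher in knockout podocytes for 10 of 23 tested members (median −0.90), beside 6.09% of all genes, and in endothelium for 2, not far from the background of 4.28%. The 10 fell to 6 without knockout endothelium replicate 2 or knockout podocyte replicate 2, and to 5 without knockout endothelium replicate 3 or with scaling by total counts alone. Itga3, the integrin subunit that binds laminin, stood at 234 and 178 CPM in knockout endothelium and 630.5 and 727 CPM in knockout podocytes, and Arhgap24, a Rac-directed GTPase-activating protein, at 244 and 286 CPM against 1232 and 1316 CPM. Ezr, the linker of podocalyxin to actin, stood at 171 and 282 CPM against 720.5 and 784 CPM. None of these groups overlapped. Within the KANK family of adhesion proteins the order reversed between members: Kank1 stood at 48.9 and 63.6 CPM against 304 and 280.4 CPM (log2 fold change −2.38), while Kank4 stood at 46.5 and 49.8 CPM against 6.83 and 11.7 CPM (log2 fold change 2.38). Nherf2, a scaffold that binds podocalyxin, was also higher in endothelium, at 2039 and 1413 CPM against 594 and 766 CPM, but its call was lost without knockout endothelium replicate 2 or without knockout podocyte replicate 2.

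Podocyte transcription factors were higher in knockout podocytes for 11 of 17 tested members and in endothelium for none with edgeR (median −2.02), against 8 in wild type, beside 6.09% and 4.73% of all genes, and the 11 fell to 6 without knockout endothelium replicate 2. Foxc2 stood at 4.94 and 3.35 CPM in knockout endothelium and 49.1 and 60.8 CPM in knockout podocytes (log2 fold change −3.72), and Tcf21, a bHLH factor, at 29.9 and 42.8 CPM against 239 and 324 CPM. Both had groups far apart. Lmx1b, whose loss causes nail-patella syndrome in people, was low throughout, at 0.212 and 0.086 CPM against 3.11 and 1.77 CPM, and its call was lost without knockout endothelium replicate 2 or 3 or without knockout podocyte replicate 2.

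Of the basement membrane genes, 12 were tested, 1 was higher in knockout endothelium and 3 in knockout podocytes (median −0.69), beside 4.28% and 6.09% of all genes, so the endothelial count was near the background. The endothelial count was 3 without knockout podocyte replicate 2, and the podocyte count was 5 without knockout podocyte replicate 3. Hspg2, the heparan sulphate proteoglycan perlecan, stood at 82.3 and 65.0 CPM in endothelium against 27.3 and 17.9 CPM in podocytes. Agrn, the glomerular proteoglycan agrin, had the opposite order, at 82.3 and 69.9 CPM against 274 and 196 CPM, and so did the integrin ligand Npnt, at 219 and 183 CPM against 1521 and 947 CPM. All 3 pairs of groups lay apart. The laminin chain Lamb1 stood at 106 and 131 CPM against 374 and 213 CPM in knockout and at 148 and 214 CPM against 163 and 214 CPM in wild type, and its knockout call was lost without knockout endothelium replicate 2 or 3 or without knockout podocyte replicate 2.

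Several ligands and receptors of glomerular signalling differed between the knockout cell types. Of 43 tested glomerular ligands and receptors, 17 were higher in knockout endothelium and 9 in knockout podocytes, beside 4.28% and 6.09% of all genes, and 25 of these 26 were called the same way in wild type. Vegfa, the podocyte-made growth factor for glomerular capillaries, stood at 116 and 105 CPM in knockout endothelium and 658 and 787 CPM in knockout podocytes (log2 fold change −2.71, SE 0.27), in the reverse order to its receptor Kdr. Tek and Tie1, the receptor kinases of the angiopoietin pathway, stood at 678 and 512 CPM against 33.5 and 34.7 CPM and at 727 and 608 CPM against 15.1 and 35.7 CPM. These 3 genes had groups far apart. Angpt2, a ligand of Tek, was the member called in knockout alone, at 112 and 56.0 CPM in endothelium and 606 and 154 CPM in podocytes, and podocyte replicate 2 held the high value. Its call was lost without knockout endothelium replicate 3 or without knockout podocyte replicate 2. Robo2, a SLIT receptor of podocytes, stood at 51.5 and 51.3 CPM against 286 and 298 CPM, the reverse of its paralogue Robo4. Ackr3, an atypical receptor for the chemokine CXCL12, stood at 27.0 and 18.5 CPM against 366 and 240.4 CPM, and Bmp7, a survival factor of nephron progenitors, at 12.7 and 15.3 CPM against 72.1 and 91.7 CPM. In both cases every podocyte library lay above every endothelial one.

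Genes of vessel tone and haemostasis were called on both sides, 12 of 25 higher in knockout endothelium and 9 in knockout podocytes (median 0.93), beside 4.28% and 6.09% of all genes. The receptor components for adrenomedullin were endothelial, with Calcrl at 239 and 219.5 CPM against 15.4 and 23.6 CPM and its partner Ramp2 at 256 and 186 CPM against 16.6 and 12.4 CPM. Thbd, the anticoagulant thrombomodulin, stood at 279.8 and 246 CPM in endothelium against 17.5 and 42.0 CPM in podocytes, whereas F3, which encodes the procoagulant tissue factor, stood at 26.4 and 40.2 CPM against 279 and 214 CPM. The groups lay apart in all of these, in opposite directions for Thbd and F3 (log2 fold changes 3.15 and −2.89). The peptidase genes Enpep and Mme, whose products cleave vasoactive peptides, were higher in podocytes, Enpep at 244 and 237 CPM against 1721 and 1774 CPM and Mme at 38.5 and 44.0 CPM against 353 and 215 CPM.

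Of 17 tested genes of leukocyte adhesion, 9 were higher in knockout endothelium and 3 in knockout podocytes (median 1.30), beside 4.28% and 6.09% of all genes. In wild type 9 and 2 were, beside 4.26% and 4.73%. Icam2, a ligand of leukocyte integrins, stood at 485 and 455 CPM in endothelium against 23.0 and 20.7 CPM in podocytes, and Esam, a junctional adhesion molecule, at 982 and 805 CPM against 97.5 and 66.0 CPM. Their groups lay apart, as did those of Alcam, an immunoglobulin-family adhesion molecule with the opposite order (51.0 and 38.2 CPM against 181 and 209.6 CPM). The chemokine Ccl2 stood at 3.53 and 1.72 CPM against 37.8 and 9.59 CPM, with the high value in podocyte replicate 2, and its call was lost without knockout endothelium replicate 2 or 3 or without knockout podocyte replicate 2.

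The glycocalyx list, to which Emcn belongs, had members on both sides. Of 45 tested, 9 were higher in knockout endothelium and 15 in knockout podocytes (median 0.06), beside 4.28% and 6.09% of all genes. In wild type 10 and 12 were, beside 4.26% and 4.73%, and 19 were called the same way in both genotypes. The podocyte count of 15 fell to 9 without knockout endothelium replicate 2, to 8 without knockout endothelium replicate 3 or knockout podocyte replicate 2, and to 7 with scaling by total counts alone. On the endothelial side, Esm1, a secreted dermatan sulphate proteoglycan, stood at 228 and 71.8 CPM in knockout endothelium and 1.74 and 2.73 CPM in knockout podocytes (log2 fold change 6.07, SE 0.57). Srgn, the granule proteoglycan serglycin, stood at 435 and 558 CPM against 13.1 and 33.3 CPM, and Cd34, a sialomucin related in kind to endomucin, at 880.4 and 575 CPM against 92.9 and 68.4 CPM. Endothelial libraries lay above podocyte libraries for each. On the podocyte side were the core proteins Gpc1, at 17.5 and 18.5 CPM against 148 and 199.8 CPM, and Sdc4, at 248 and 484 CPM against 1420.0 and 1711 CPM. The heparan sulphate 3-O-sulphotransferases Hs3st3a1 and Hs3st6 stood at 10.4 and 9.12 CPM against 64.4 and 87.5 CPM and at 12.3 and 18.8 CPM against 69.3 and 140.3 CPM. These groups did not overlap either, and every podocyte library was the higher one.

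**Figure D2:**
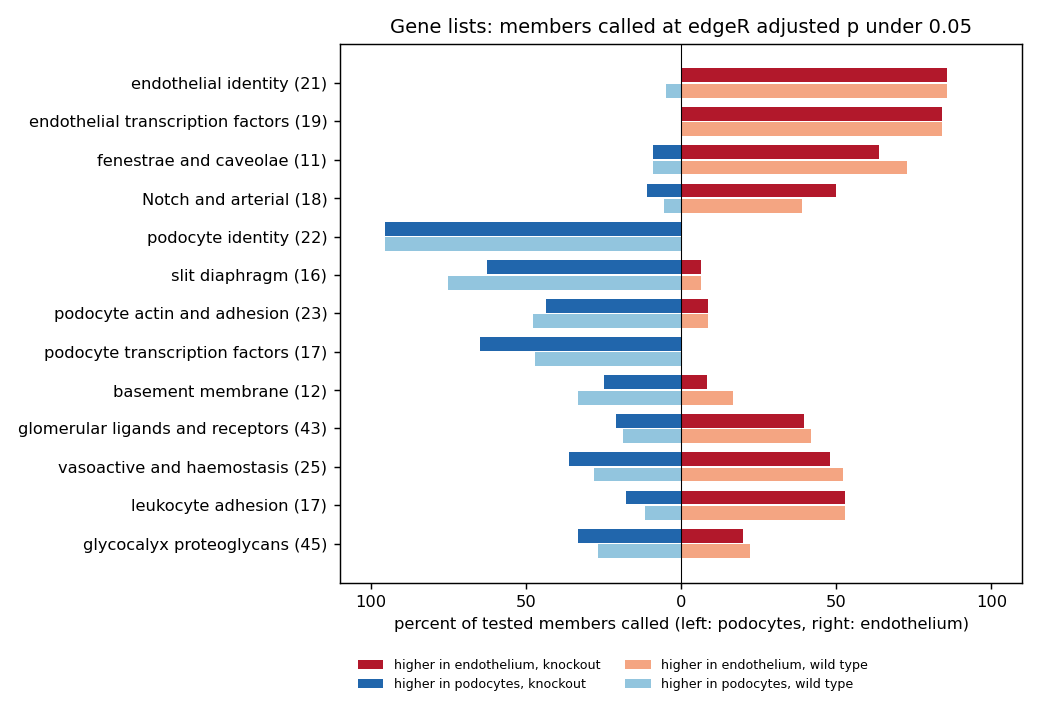
Percent of the tested members of 13 gene lists (number tested in brackets) called higher in endothelium (right) or in podocytes (left) at an edgeR adjusted p under 0.05. Dark bars are knockout and light bars wild type; the endothelial identity and transcription factor bars extend to the right and the podocyte identity bar to the left in both genotypes, and the glycocalyx list extends both ways.

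Among all genes called in knockout with at least 20 CPM on average in the higher group and no overlap between groups, the 10 largest differences in each direction were read. On the endothelial side they held Esm1, Gpihbp1, Robo4, Sox18, Tmem119 and Stab1, besides Ctla2a, a cathepsin inhibitor, at 522 and 436 CPM in endothelium against 8.01 and 9.22 CPM in podocytes, and Pi16 at 1029.7 and 1025 CPM against 22.0 and 24.3 CPM. Shank3, a scaffold protein, stood at 42.7 and 37.1 CPM against 0.808 and 1.03 CPM, and Apold1, an endothelial early-response gene, at 48.6 and 56.2 CPM against 1.93 and 0.59 CPM. Each of these was called in wild type as well. On the podocyte side the largest of these was C3, the central complement component, at 5.64 and 2.41 CPM in endothelium and 455 and 152 CPM in podocytes (log2 fold change −6.22, SE 0.79). It was followed by Cldn1, a claudin known from the parietal epithelium of Bowman's capsule, at 4.23 and 1.89 CPM against 209 and 86.7 CPM, and Dkk3, a secreted glycoprotein of the Dickkopf family, at 11.3 and 3.01 CPM against 487 and 194 CPM. All 3 were called in wild type too, and in all 3 podocyte replicate 2 held the higher knockout value of the podocyte group. The 7 that followed were Stc2, Cgref1, Ccdc3, Glyat, Lsp1, Igfbp2 and Mettl7b, of which Cgref1, Glyat and Mettl7b were not called in wild type. Podocyte replicate 2 lay above replicate 3 in all 7. The knockout call was lost without knockout endothelium replicate 3 or without knockout podocyte replicate 2 for Cgref1 and Igfbp2, without knockout endothelium replicate 3 for Ccdc3, and without knockout endothelium replicate 2 or 3 or without knockout podocyte replicate 2 for Mettl7b.

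Promoter windows of these genes were read to show what their sequences hold. From 250 bases before to 50 after each RefSeq start (GRCm38.p6), a window was on hand for 12063 of the genes tested, and 8 short motifs were searched on both strands with earlier results of these data known. The letters CAGGAAG, a core bound by ETS-family factors, were found in 22.9% of the 515 endothelium-higher genes with a window, in 14.4% of the 757 podocyte-higher ones and in 14.5% of all. The letters GTGGGAGG, close to sites described for WT1, were found in 6.80% of the endothelium-higher genes, 10.7% of the podocyte-higher ones and 5.85% of all. The median GC content of the windows was 59.2%, 61.8% and 57.8% in the same order, and a gene, counted if any of its windows matched, had 1.38, 1.29 and 1.23 windows on average. None of these differences was tested. The longer ETS letters CCGGAAGT were found in 3.30%, 3.43% and 6.69%. Of the other 5, TGCTGAC (a MAF half-site) was in a window of 5.44% of the endothelium-higher genes, 4.62% of the podocyte-higher ones and 5.05% of all, and TTAATTA (LIM homeodomain factors) in 1.94%, 2.38% and 2.60%. The GATA letters AGATAAG were in 3.69%, 1.72% and 2.87%. The forkhead letters TGTTTAC were in 3.69%, 3.43% and 3.40%, and the AP-1 letters TGACTCA in 6.60%, 6.61% and 5.14%. The stretches that follow are 100 bases of these windows, 5′ to 3′ on the gene's strand, with the motif on either strand in capitals, and are shown because the genes recur in the results.
Emcn (chr3:137340859-137340958, plus strand): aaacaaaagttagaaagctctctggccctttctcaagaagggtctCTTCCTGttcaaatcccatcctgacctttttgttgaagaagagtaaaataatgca
Robo4 (chr9:37401872-37401971, plus strand): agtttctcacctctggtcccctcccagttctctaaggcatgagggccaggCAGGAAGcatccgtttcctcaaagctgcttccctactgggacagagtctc
Egfl7 (chr2:26580948-26581047, plus strand): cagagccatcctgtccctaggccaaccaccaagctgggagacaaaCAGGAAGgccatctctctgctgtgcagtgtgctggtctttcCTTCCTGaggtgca
Stab1 (chr14:31168704-31168803, minus strand): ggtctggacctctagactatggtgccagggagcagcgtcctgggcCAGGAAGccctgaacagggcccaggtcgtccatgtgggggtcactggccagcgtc
Crb2 (chr2:37776144-37776243, plus strand): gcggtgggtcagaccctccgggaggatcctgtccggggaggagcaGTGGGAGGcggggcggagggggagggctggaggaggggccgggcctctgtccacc
Robo2 (chr16:75447341-75447440, minus strand): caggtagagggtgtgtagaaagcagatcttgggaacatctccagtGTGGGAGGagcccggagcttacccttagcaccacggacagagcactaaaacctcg
A match is a description of letters and not a site: the podocyte-higher genes Glyat, Pax8 and Mettl7b hold CAGGAAG in their windows as well, and the endothelium-higher genes Tie1 and Gata5 hold GTGGGAGG.

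Most cell-type differences called in wild type were kept in the EMCN-/- libraries. Of the knockout calls, 1171 (68.5%) were also called in wild type in the same direction, which was 79.1% of the wild-type calls, and none was called in opposite directions. The 2 comparisons share no library, but 1 fit over all 8 libraries gave both their spread, so they are not independent. With each genotype fitted alone, 1034 genes were shared, 81.7% of the knockout calls and 61.1% of the wild-type calls. In the main fit, 581 genes were shared on the endothelial side, 82.4% of the knockout calls and 82.8% of the wild-type calls. On the podocyte side 590 were shared, 58.8% of the knockout calls and 75.7% of the wild-type calls. Of the 702 genes called higher in wild-type endothelium, 699 had the same sign in knockout, and in 687 (97.9%) the knockout groups did not overlap in that direction, beside 27.3% of all genes. Of the 779 called higher in wild-type podocytes, 778 had the same sign and 766 (98.3%) did not overlap, beside 27.8% of all genes. The medians of these differences were smaller in knockout, at 2.04 against 2.36 for the endothelial genes and −1.59 against −1.80 for the podocyte genes, but these genes were chosen on the wild-type values. Genes chosen by their knockout calls had medians of 2.21 in knockout against 2.17 in wild type on the endothelial side and −1.73 against −1.39 on the podocyte side, and over all genes the median absolute log2 fold change was 0.52 in knockout and 0.46 in wild type. Over all genes the Pearson correlation of the log2 fold changes was 0.654, a description over 16477 genes that share their libraries. Without wild-type podocyte replicate 2 the shared count fell to 715.

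**Figure D3:**
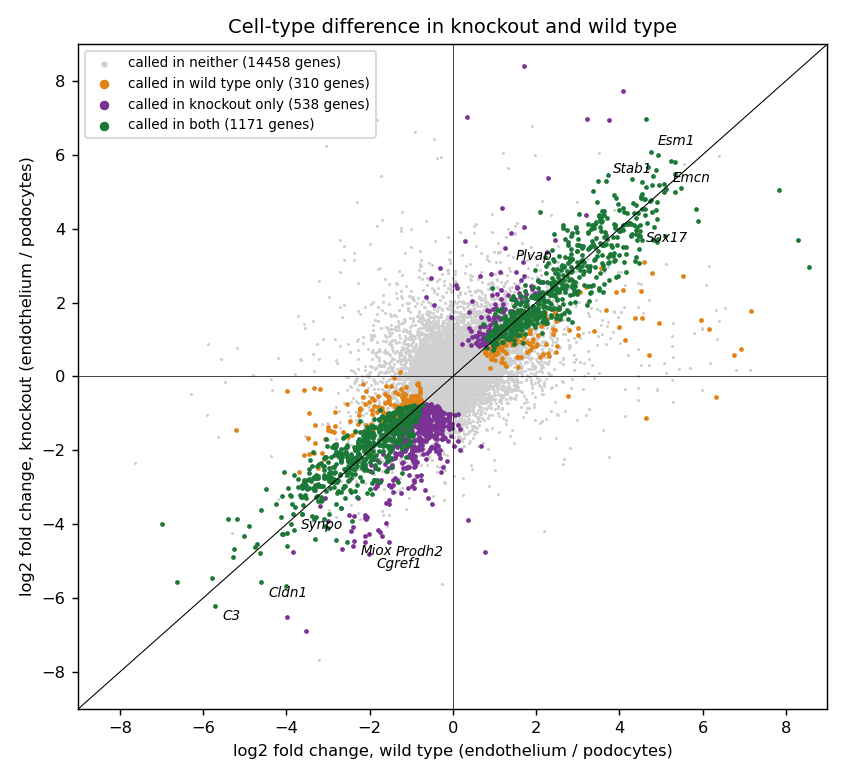
Log2 fold change of endothelium over podocytes in wild type (horizontal axis) and in knockout (vertical axis), with 1 point per gene tested and the line of equal change. Green points, called in both genotypes, lie along the line in the upper right and lower left; purple points, called in knockout only, lie mostly below the line on the podocyte side (414 genes) and fewer lie on the endothelial side (124 genes).

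No gene passed the test of the shift itself, the difference between the knockout and wild-type fold changes (0% of all genes, edgeR). Without adjustment, 428 genes (2.60%) had a p under 0.05 in edgeR and 491 in DESeq2, which also called none. Both counts lay below a 0.05 share of all genes, the share that would pass with no shift in any gene. The edgeR count was 1095 without wild-type endothelium replicate 2, 196 without wild-type endothelium replicate 3 and 943 without knockout podocyte replicate 3. The median SE of this difference was 0.61 on the log2 scale, so shifts of moderate size were not detectable with 2 libraries a group. The values that follow are therefore descriptions. Among the genes with the smallest unadjusted p, Stab1, a scavenger receptor that takes up hyaluronan and other ligands, stood at 193 and 122 CPM in knockout endothelium and 4.29 and 3.69 CPM in knockout podocytes, and at 107 and 92.9 CPM and 8.10 and 7.48 CPM in wild type. Both knockout endothelial libraries lay above both wild-type ones and both knockout podocyte libraries below, with log2 fold changes of 5.30 in knockout and 3.68 in wild type (difference 1.62, SE 0.38). Tbxa2r, the thromboxane A2 receptor, had the same pattern, at 114 and 157 CPM against 21.2 and 30.9 CPM in knockout and 70.1 and 74.6 CPM against 41.5 and 33.4 CPM in wild type (difference 1.43, SE 0.37). Arhgef26, a guanine nucleotide exchange factor, stood at 40.6 and 47.5 CPM against 26.5 and 32.2 CPM in knockout and 39.6 and 33.9 CPM against 64.1 and 55.5 CPM in wild type, an order that turned between the genotypes without passing the test in either. Mxd3 had 0 counts in both knockout podocyte libraries and 2.54 and 3.53 CPM in knockout endothelium, so no fold is given, and the predicted gene Gm8378 was at most 9.14 CPM in any library.

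In the other direction, Cobll1 stood at 37.1 and 48.3 CPM against 165 and 107 CPM in knockout and 73.6 and 64.5 CPM against 75.3 and 81.5 CPM in wild type (difference −1.49, SE 0.37), and Rab3ip, an exchange factor for RAB8, at 75.7 and 49.0 CPM against 271 and 194 CPM and 133 and 165 CPM against 184 and 200.0 CPM (difference −1.53, SE 0.39). For both genes the knockout groups lay apart while the wild-type groups were close, and the lowest libraries were those of knockout endothelium. Shtn1, which acts in axon outgrowth, and Cd209a, a C-type lectin, were low, at most 14.6 and 4.23 CPM in any library, and Cd209a was at 0 in wild-type podocyte replicates 2 and 3. Within the lists, Bmp7 stood at 35.2 and 37.4 CPM in wild-type endothelium, above both knockout endothelial libraries, with a difference of −0.95 (SE 0.32, unadjusted p = 0.0137), and Cd36 stood at 102 and 75.3 CPM in wild-type endothelium, below both knockout libraries, with a difference of 1.36 (SE 0.50, unadjusted p = 0.0203).

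Most genes called in wild type alone had the same sign in knockout. There were 121 such genes on the endothelial side, of which 118 had the same sign in knockout, and 189 on the podocyte side, of which 188 did. Among those with a mean of at least 20 CPM in a group, the genes with the largest change in difference were read. Adcy5, an adenylyl cyclase, stood at 8.67 and 4.64 CPM against 11.9 and 22.7 CPM in knockout and 5.17 and 2.03 CPM against 31.0 and 26.9 CPM in wild type. Eya1, a phosphatase and transcriptional cofactor of kidney development, stood at 10.4 and 6.02 CPM against 21.0 and 20.6 CPM and 6.84 and 2.61 CPM against 39.1 and 28.7 CPM. For both, the knockout groups still did not overlap. Sparcl1, a matricellular protein, stood at 192 and 71.0 CPM against 129.8 and 38.8 CPM in knockout, groups that overlap, and at 117 and 91.4 CPM against 17.9 and 25.0 CPM in wild type. Ptchd4 stood at 23.7 and 20.1 CPM against 59.6 and 64.2 CPM and 20.9 and 5.93 CPM against 96.0 and 99.4 CPM, and BB014433 was at most 31.3 CPM in any library.

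Of the genes called in knockout alone, 414 were higher in podocytes and 124 in endothelium. With scaling by total counts alone the order turned, to 132 in podocytes and 171 in endothelium, and 114 of the 414 (27.5%) were still called. With each genotype fitted alone, 164 were higher in podocytes and 68 in endothelium. Podocyte replicate 2 was high in most of the 414: in 356 (86.0%), podocyte replicate 2 lay above replicate 3, beside 59.5% of the 590 podocyte-higher genes called in both genotypes and 48.4% of all genes. With podocyte replicate 3 left out, 334 of the 414 (80.7%) were still called, against 76 (18.4%) without podocyte replicate 2, 89 (21.5%) without endothelium replicate 2 and 113 (27.3%) without endothelium replicate 3. Of the 590 called in both genotypes, 372 to 523 were still called in these 4 fits. On the endothelial side the 124 knockout-only genes fell to 12 without endothelium replicate 2 and to 39 to 43 without any 1 of the other 3 libraries, against 408 to 496 of the 581 called in both genotypes. Median log2 fold changes in knockout were smaller for knockout-only genes than for all knockout calls. They were 1.75 against 2.21 on the endothelial side and −1.50 against −1.73 on the podocyte side. Such genes lie nearer the threshold, so part of their greater loss follows from how they were chosen. Of the 414, 404 had the same sign in wild type, with medians of −1.50 in knockout and −0.76 in wild type, an order that the choice of these genes by their calls fixes. Among knockout-only genes averaging at least 20 CPM in a group, Prodh2, Cgref1, Lrrc19, Tmem174 and Napsa differed most from wild type. The difference for Lrrc19 was −2.47 and turned to 0.89 without knockout podocyte replicate 2. Prodh2, a proline-related dehydrogenase of liver and kidney, stood at 2.40 and 0.86 CPM in knockout endothelium and 64.3 and 9.88 CPM in knockout podocytes, and at 1.44 and 4.49 CPM against 3.50 and 13.9 CPM in wild type. Tmem174, a membrane protein of the proximal tubule, stood at 3.10 and 1.72 CPM against 93.2 and 15.9 CPM and 3.34 and 7.82 CPM against 17.6 and 30.5 CPM, and Napsa, an aspartic peptidase of lung and kidney, at 6.42 and 4.30 CPM against 139.9 and 29.3 CPM and 3.95 and 14.8 CPM against 24.5 and 32.6 CPM. In all 3 the highest of the 8 libraries was knockout podocyte replicate 2, and Cgref1 (54.2 and 12.7 CPM in knockout podocytes) and Lrrc19 (40.8 and 2.06 CPM) shared that pattern.

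**Figure D4:**
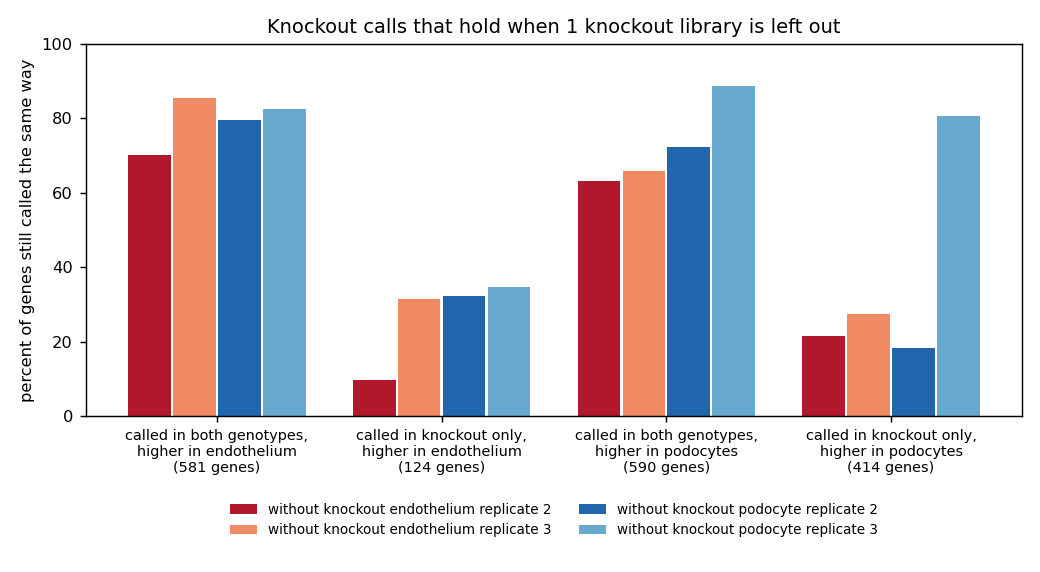
Percent of the genes called in knockout that were still called in the same direction when each of the 4 knockout libraries was left out, for genes called in both genotypes and in knockout only. The podocyte-higher genes called in knockout only fall to between 18.4% and 27.3% without podocyte replicate 2 or either endothelial library, and stand at 80.7% without podocyte replicate 3.

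Proximal tubule markers were highest in that library. Of 9 tested proximal tubule markers, 5 were called higher in knockout podocytes, beside 6.09% of all genes, and 1 in wild type, and the summed level of the list was 175 to 220 CPM in knockout endothelium, 2370 CPM in knockout podocyte replicate 2 and 406 CPM in replicate 3. In wild type it was 211 to 307 CPM in endothelium, and 556 and 1296 CPM in podocyte replicates 2 and 3. Miox, a myo-inositol oxygenase of the proximal tubule, stood at 35.4 and 5.68 CPM in knockout endothelium and 829 and 76.6 CPM in knockout podocytes, and the gluconeogenic enzyme Fbp1 at 18.0 and 6.88 CPM against 379 and 47.0 CPM. Podocyte replicate 2 held the highest value of both genes among all 8 libraries, and both calls were lost without knockout endothelium replicate 3 or without knockout podocyte replicate 2. Of the 9, 3 were called without knockout endothelium replicate 2 or with scaling by total counts alone, and 1 without knockout endothelium replicate 3 or with a crossed replicate block. Without podocyte replicate 2, 1 was called, Keg1 (log2 fold change −2.40, edgeR adjusted p = 0.0251). Of 13 parietal epithelial markers, 6 were called higher in knockout podocytes (3 in wild type), read against the same 6.09%, and their sum was 900 to 1421 CPM in knockout endothelium and 2208 to 2924 CPM in knockout podocytes. Pax8, a nephron transcription factor kept in parietal cells and tubule, stood at 60.4 and 34.9 CPM against 626 and 239 CPM. Without podocyte replicate 2, 3 of the 13 were called.

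None of the 9 distal nephron and collecting duct markers was called, while their sum ran from 3146 to 9497 CPM over the knockout libraries and was higher in replicate 3 than in replicate 2 of both cell types. Umod, the loop of Henle glycoprotein, stood at 1317 and 3611 CPM in knockout endothelium and 1225 and 5416 CPM in knockout podocytes. Of 12 mesangial and mural markers, 1 was called, a share near the 6.09% of all genes; it was Tagln, an actin-associated protein of smooth muscle (33.4 and 14.3 CPM against 325 and 202 CPM, higher in podocytes and called in wild type as well), and the list summed to 450 to 806 CPM in endothelium and 647 to 1577 CPM in podocytes. Without knockout podocyte replicate 3, 5 of the 12 were called higher in podocytes, and 3 were with a replicate block. Of 7 immune markers, 1 was also called, read against the same 6.09%. It was Csf1r, a macrophage growth factor receptor (10.4 and 12.3 CPM against 107 and 76.4 CPM, higher in podocytes). The list summed to 39.8 to 52.9 CPM in endothelium and 88.0 to 126 CPM in podocytes, where Csf1r made up most of the sum. The list's median log2 fold change was 1.13, towards endothelium. Of its members, 3 lay higher in endothelium without overlap and 1 in podocytes, beside 27.3% and 27.8% of all genes. Without knockout podocyte replicate 2 a further 1 was called higher in endothelium. No tested member of these lists was at 0 counts in all 4 knockout libraries. The part that tubule and other cells in the sorted fractions had in the knockout calls was not tested.

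A list of immediate-early and heat shock genes, which are induced while tissue is dissociated, was read in the same way. Of 26 tested, 9 were higher in knockout podocytes and none in endothelium with edgeR (median −0.80), beside 6.09% of all genes, and 1 was in wild type (median −0.18), beside 4.73% of all genes. The 9 were Fos, Fosb, Jund, Egr1, Egr2, Atf3, Zfp36, Btg2 and Myc, and no heat shock gene was among them. Fosb, an AP-1 subunit, stood at 20.4 and 27.0 CPM in knockout endothelium and 176 and 153 CPM in knockout podocytes, and Atf3, a stress-induced transcription factor, at 303 and 383 CPM against 1631 and 1159 CPM. In wild type Atf3 stood at 549.8 and 834 CPM against 1431 and 1296 CPM. Egr1 stood at 1017 and 796 CPM against 4180.1 and 1759 CPM, with podocyte replicate 2 high, and its call was lost without knockout endothelium replicate 2 or 3 or without knockout podocyte replicate 2. Jund stood at 11.1 and 19.3 CPM against 372 and 43.4 CPM with the same library high, and its call was lost without knockout endothelium replicate 2 or 3 or without knockout podocyte replicate 2. The fold change was lower in knockout than in wild type for all 26 members, beside 52.6% of all genes, and none passed the test of that shift. The summed level of the list was 28973 and 37399 CPM in knockout endothelium, 40824 and 35387 CPM in knockout podocytes, and 41730 to 53716 CPM over the wild-type libraries, and the lowest of the 8 values was that of knockout endothelium replicate 2. The count fell to 3 without knockout podocyte replicate 2 or knockout endothelium replicate 2, to 4 without knockout endothelium replicate 3 or with scaling by total counts alone, and rose to 13 without knockout podocyte replicate 3. The part of sample handling in the knockout calls was not tested.

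**Figure D5:**
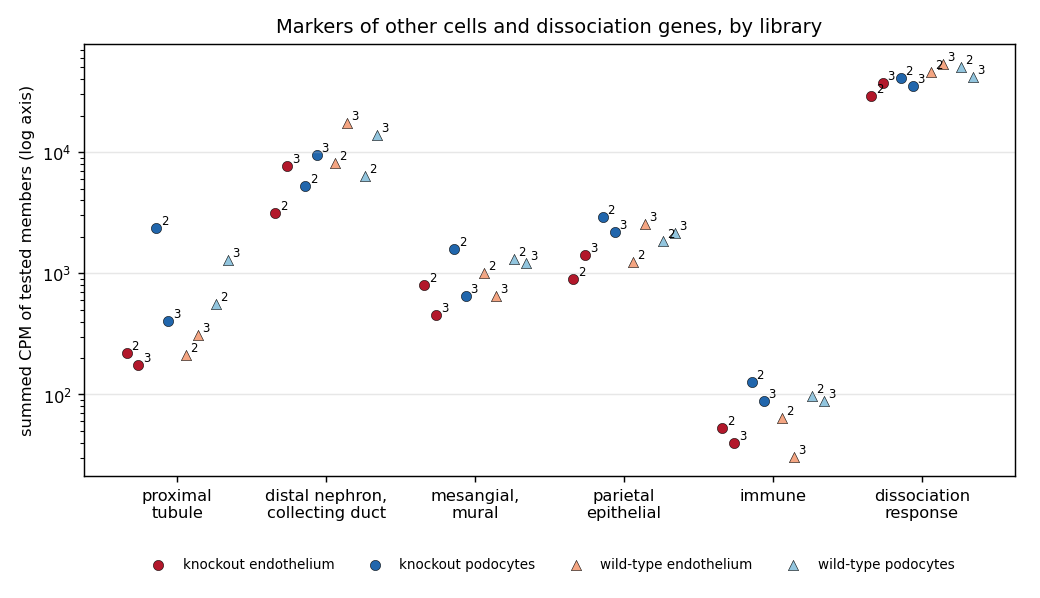
Summed TMM-scaled CPM (log axis) of the tested markers of other kidney cells and of dissociation genes, with 1 point per library and its replicate number. Proximal tubule markers are highest in knockout podocyte replicate 2 (2370 CPM), distal nephron markers are higher in replicate 3 than in replicate 2 of every group, and the lowest dissociation sum is that of knockout endothelium replicate 2 (28973 CPM).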

How the data were processed

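The data were 1 deposited table of read counts per gene for 8 libraries made by the authors from sorted mouse kidney cells, with TruSeq libraries of polyadenylated RNA per the labels' protocols. Per the submitters' processing notes, the build was mm10 and DESeq2 was used; the aligner, the counting and its use of strand are not given in the sources used here. Of 22533 lines, 5207 (23.11%) held fewer than 8 counts and were not analysed here, so 17326 lines were read, 617 of them with no symbol. Total counts on these lines ran from 10478956 to 17386042 per library.

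Genes were kept by edgeR's default expression filter, scaled by TMM and tested by edgeR's quasi-likelihood test (R 4.3.3, edgeR 4.0.16) with 4 group means over all 8 libraries. The contrasts were endothelium minus podocytes in knockout, the same in wild type, and their difference, each adjusted by Benjamini-Hochberg over 16477 genes at 0.05. Gene-level standard errors are those of the same fit. The members and gene lists were chosen with earlier results of these data known, and so were the motifs. Genes were named by a rule: the 5 largest called differences per list and direction, the 10 largest per direction over all genes at 20 CPM or more, and the 5 smallest interaction p per direction. The 5 largest knockout-only and wild-type-only differences were added, also at 20 CPM or more. The 3 most abundant members were taken from each marker list of other cells. Other names were chosen after their values were seen, and some items the rule names are not reported here.

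Alternatives were other scalings, DESeq2 1.42.0, limma 3.58.1 with voom, other filters and thresholds, a replicate block, and leaving out each library. On simulated counts for this comparison (15998 genes), edgeR recovered 13.75% of 2-fold, 81.25% of 4-fold and 100% of 8-fold changes, with 5 false calls of 121. The changes were set in 80, 80 and 40 genes with a mean of at least 5 CPM, far fewer than were called here. The adjusted threshold was therefore stricter than in the real comparison, so these shares do not measure recovery there. Symbols and promoters came from RefSeq tables of GRCm38.p6. In these, 59 of 136 named genes overlap another gene (Emcn with Gm38650, Kdr with Gm32727), and such counts are uncertain without a known strand. TMM assumes that most genes do not differ, so a difference in total RNA per cell would not be seen.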

Additional observations from a re-analysis of the deposited data

How the results depend on the processing

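The knockout count of called genes ran from 960 to 1809 when 1 knockout library was left out, the wild-type count from 769 to 1085 when 1 wild-type library was, and the count called in both genotypes from 715 to 1139 over all 8. The largest losses were without knockout endothelium replicate 2 (960), knockout podocyte replicate 2 (1079) and knockout endothelium replicate 3 (1115), and for wild type without podocyte replicate 2 (769) and endothelium replicate 3 (922). In such fits the lone library is assumed to vary like those of the other groups, and the cause of these losses, beyond fewer samples, was not tested. Scaling by DESeq2 size factors, by total counts alone, DESeq2's test, voom, other filters and thresholds, leaving out mitochondrial genes and fitting 1 genotype alone gave 1218 to 2408 knockout calls, within 1.5 times of 1709. Under these no gene was called in opposite directions in the 2 genotypes. None passed the test of the shift either (edgeR, DESeq2 and voom), which could not be fitted within 1 genotype.

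Replicate numbers were not used as pairs. Over all genes, the deviations of same-numbered libraries had a correlation of 0.111 in knockout and −0.129 in wild type. Replicate 3 nonetheless had the higher mitochondrial share and distal nephron sum in every group. In wild type the mitochondrial share was 13.3% and 26.2% in endothelium and 12.2% and 16.9% in podocytes (replicates 2 and 3). Whether same-numbered libraries share a source was not tested. In fits with a replicate block the knockout count was 2241 and the wild-type count 1831; with the podocyte numbers crossed, an alternative added after seeing the data, they were 1578 and 1357. Of the 117 genes named by the rule and called in knockout (Sox17 is not among them), 92 were called under every alternative, and 2 more under every alternative that gave them an adjusted p. The other 23 lost the call under at least 1; all but Nherf2 were higher in podocytes, and 15 lost it with total-count scaling. The interaction term of Lrrc19 was −2.47 and ran from −3.40 to 0.89 over the fits that left out 1 library, turning to 0.89 without knockout podocyte replicate 2. In the simulation, most 2-fold changes were not recovered with 2 libraries a group, and recovery at the real comparison's looser threshold was not measured.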
